A study of Mus musculus with 4 samples.

Results

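The nucleic acid sensors, the Toll-like receptors and the proteins that carry their signals were examined as a group of 10 genes, Ddx58, Ifih1, Dhx58, Zbp1, Tlr2, Tlr3, Tlr4, Myd88, Ticam1 and Tbk1, out of 28146 gene names on the array. Members were found by their names, with no use of measured values, and every oligonucleotide probe of each gene was kept in view, which gave 18 probes of 41174. EPH-4, a non-malignant mouse mammary epithelial cell line, had been stably transfected either with empty H1-2 vector (line EV-50) or with a short hairpin RNA against the glucocorticoid receptor (line shGR-19). Each line was 1 clonal isolate held in serum-free medium with 2 µg/mL puromycin, without glucocorticoid, so the comparison asked what falls or rises when the receptor without its ligand is depleted. Total RNA was hybridised to 2 one-colour arrays per line. The labels call these duplicates without saying whether they came from separate cultures, so the p-values measure only the spread between these arrays, and with 1 clone per line the knockdown and the clone cannot be told apart.

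Cells recognise microbial RNA and DNA through several families of receptor. RIG-I, MDA5 and LGP2, the products of Ddx58, Ifih1 and Dhx58, are cytoplasmic helicases for double-stranded RNA; RIG-I and MDA5 signal through the mitochondrial adaptor MAVS, while LGP2 lacks the signalling domain and tunes the other two. ZBP1 binds left-handed Z-form nucleic acid and can start inflammatory cell death. Toll-like receptors sit in the membrane: TLR2 responds to bacterial lipoproteins, TLR4 to lipopolysaccharide and TLR3, in endosomes, to double-stranded RNA. MYD88 is the adaptor for TLR2 and TLR4, TRIF (Ticam1) serves TLR3 and TLR4, and TBK1 is the kinase on which TRIF and MAVS converge to activate interferon regulatory factors. Several of these genes are themselves induced by interferon, and mammary epithelium is a barrier tissue that carries such receptors.

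The probe sequences that carry the main results are given 5′ to 3′ in lower case, since a probe reports only the transcript part it matches. The Ddx58 probe is whole and lies at mm9 chr4:40156918-40156977 on the minus strand. For Zbp1 (mm9 chr2:173032113-173032170, minus strand) and Tlr2 (mm9 chr3:83640344-83640403, minus strand) the first 30 bases of 60 are shown. All 3 match the annotated transcripts of these genes.
Ddx58 probe: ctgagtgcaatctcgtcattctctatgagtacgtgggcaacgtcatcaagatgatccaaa
Zbp1 probe: cgggaggggggacactgctgaatgcactgt
Tlr2 probe: ccttggatgaaggccagcaggaagtgtttt

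Upstream sequence was taken for 7 of the 10 genes from RefSeq (build GRCm38.p6); the upstream sequences of Zbp1, Dhx58 and Tlr4 were not used here. The 250 bases before each start site were searched on both strands for the core of the interferon-stimulated response element (GAAA, any 2 bases, then GAAA), for the gamma-activated site (TTCNNNGAA), for a GABP site (CCGGAAGT) and for a glucocorticoid receptor half-site (AGAACA). The interferon-stimulated core was found for 1 of 7, Myd88, starting 40 bases before the start site, against 2.98% of 32851 windows of the same length. The gamma-activated letters were also found for Myd88 alone among the 7, against 7.02% of all windows. Neither the GABP letters, held by 2.88% of all windows, nor the half-site, held by 16.1%, were in any of the 7. The Myd88 window (GRCm38.p6 chr9:119340019-119340268, minus strand) is printed with the interferon-stimulated core in capitals, and that of Ddx58 (chr4:40239826-40240075, minus strand), the gene with the most probes, beside it without any match to that core. A match describes letters only and is no evidence of binding.
Myd88 upstream: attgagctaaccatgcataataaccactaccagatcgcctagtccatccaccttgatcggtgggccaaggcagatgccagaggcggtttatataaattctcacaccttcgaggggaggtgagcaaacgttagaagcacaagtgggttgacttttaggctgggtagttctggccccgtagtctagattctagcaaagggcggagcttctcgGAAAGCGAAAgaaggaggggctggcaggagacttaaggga
Ddx58 upstream: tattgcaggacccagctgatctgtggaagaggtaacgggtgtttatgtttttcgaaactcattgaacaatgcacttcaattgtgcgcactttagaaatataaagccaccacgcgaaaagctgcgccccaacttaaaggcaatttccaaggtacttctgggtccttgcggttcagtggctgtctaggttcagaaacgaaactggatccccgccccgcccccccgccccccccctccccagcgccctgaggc

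The arrays were available as 4 scanner files and as a table of normalised values deposited with them, and these 2 sources disagreed about the duplicates. Signals from the scanner files are given as log2 of the processed signal over the array's own 75th percentile, and the table holds log2 values centred on each probe's median over the 4 arrays. Over 21179 probes well above background on every array, the scanner arrays labelled replicate 1 of the 2 lines had a between-array SD of 0.225, less than the duplicates of EV-50 (0.616) or of shGR-19 (0.705). In the table the duplicates differed with SDs of 0.205 and 0.21. The targeted gene, Nr3c1, showed the same split. Its brightest probe read 1.81 and 1.92 in EV-50 (labelled replicates 1 and 2, the order kept throughout) and 1.46 and −0.03 in shGR-19. In the table Nr3c1 was lower in shGR-19 by a log2 difference of −1.94 (SE 0.05, adjusted p = 0.00216, limma). The array labelled shGR-19 replicate 1 thus read the targeted gene nearer to EV-50 than to its own duplicate. Whether a scanner file stands under another sample's label was not tested, and it would change what the scanner differences, their SEs and the count of calls mean. Every result is therefore given from both sources, and arrays are called by their labels.

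Of 18 member probes, 16 were well above background throughout at least 1 of the lines and were tested among the 24443 probes kept by that rule, and these 16 covered all 10 genes. The probes left out were a second Dhx58 probe, matching a cDNA outside the reference transcript, and a second Ifih1 probe across an exon junction; neither was well above background on any array. Epithelial identity held: 11 of 12 epithelial keratin and junction genes were well above background on all 4 arrays, with a summed signal of 863 to 1073 times the 75th percentile. Leukocyte markers, of interest because such cells carry many Toll-like receptors, summed to 1.19 to 1.31 times the 75th percentile. Of 14 such genes, 9 were well above background on all 4 arrays, and Ptprc, Emr1, Itgam and Laptm5 on none. Endothelial markers summed to 0.0727 to 0.0936. Fibroblast markers summed to 1.63 to 3.11 on 3 arrays and to 34.4 on the array labelled shGR-19 replicate 2. Of 6 such genes, Col1a2 was well above background on all 4 arrays and Dcn on none. Their median log2 difference in the table was 1.41. The part of these markers in the results below was not tested.

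In the value table, 5 of the 10 genes were lower in shGR-19 at an adjusted p below 0.01: Zbp1, Tlr2, Ddx58, Dhx58 and Myd88. Of the 16 kept probes, 7 passed, all of them reading these genes, against 6.04% of all 24443 probes lower by the same rule. The dimmest Ddx58 probe missed it, at an adjusted p of 0.0135 (limma). None of the 16 passed as higher, against 5.53% of all. Zbp1 alone also passed a 2-fold limit, 1 of 16 probes against 2.39% of all lower and 1.87% of all higher. Both shGR-19 columns lay below both EV-50 columns for 12 of 16 probes, against 35.3% of all probes. They lay above for 3 of 16, and the share of all probes lying above was not taken. The median log2 difference of the 16 probes was −0.58, beside 0.01 for all kept probes. In RNA from a whole culture, less transcript in every cell and fewer cells with the transcript cannot be told apart. These genes were chosen as a group with earlier results of these data known, so the counts describe the group and are no independent test of it.

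The scanner files gave no probe at an adjusted p below 0.01 (limma), 0% of 24441 tested. The smallest adjusted p over all probes was 0.93. At an unadjusted p below 0.05 there were 209 probes, none of them a member. The median log2 difference of the 16 member probes was −0.25, beside 0.02 for all probes. Taken by number, without a test, the arrays labelled replicate 2 gave a member median of −0.50 (all probes 0.01) and those labelled replicate 1 gave −0.04 (all probes 0.03). More than 2-fold lower in shGR-19 were 3 of 16 member probes between the arrays labelled replicate 2 (3.16% of all probes). Between those labelled replicate 1 there were 0 of 16 (1.11% of all probes). More than 2-fold higher were 0 of 16 and 1 of 16, in the same order. That 1 was the dimmest Ddx58 probe, at 1.37, and the share of all probes higher was not taken. At any size, 13 and 9 of the 16 were lower and 3 and 7 higher.

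**Figure D1:**
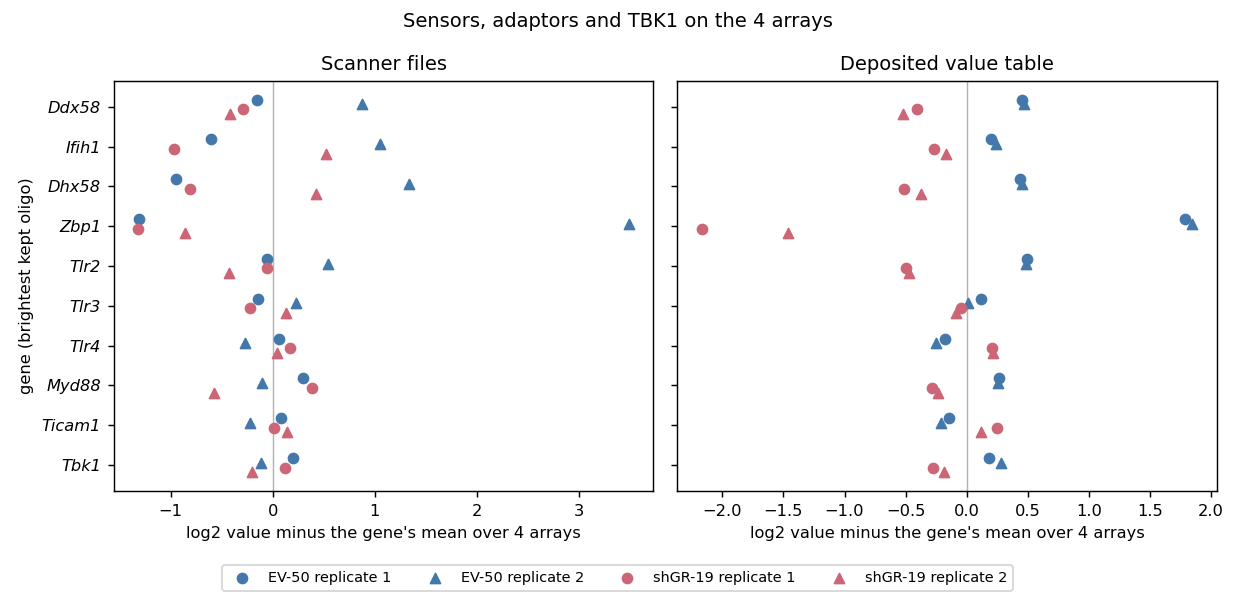
Log2 values of the brightest kept probe of each of the 10 genes, each minus its mean over the 4 arrays, from the scanner files (left) and from the value table (right). Circles are replicate 1, triangles replicate 2, blue EV-50 and red shGR-19. In the table the lines separate for all 10 genes, by the least for Tlr3; in the scanner files the EV-50 replicate 2 triangle stands far right for the helicases and Zbp1.

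Zbp1 showed the greatest difference of the 10 genes. Its log2 signals in the scanner files were −4.27 and 0.53 in EV-50 and −4.27 and −3.82 in shGR-19. A high signal was thus present on 1 array of 4, and that array decided the scanner difference of −2.18 (SE 1.64), which was 0.22 without it. In the table the values were 1.62 and 1.68 in EV-50 and −2.33 and −1.62 in shGR-19. Both EV-50 columns were high there, and the lines did not overlap. The table's log2 difference of −3.63 (SE 0.27, adjusted p = 0.00616, limma) is a 12.4-fold lower level in shGR-19. The scanner arrays labelled replicate 2 gave −4.35 and the pair labelled replicate 1 gave −0.01.

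The 3 cytoplasmic RNA helicases were lower in shGR-19 in the table, and Ddx58 and Dhx58 passed the test. Ddx58, read by 4 probes along its transcript, had log2 differences of −0.93, −0.98, −0.69 and −0.92 from the brightest to the dimmest probe, with adjusted p-values of 0.00528, 0.00519, 0.00707 and 0.0135. Of the 4 probes, 3 passed and all pointed the same way, and the SEs were 0.06, 0.06, 0.06 and 0.11. In the scanner files the brightest read 0.77 and 1.80 in EV-50 and 0.63 and 0.50 in shGR-19. For this probe and the dimmer Tlr3 probe, 2 of 16 member probes, both scanner arrays of shGR-19 lay below both of EV-50. For 1 of 16 both lay above. The shares of all probes were not taken for the scanner arrays, so these counts are no result about the members. The scanner differences of the 4 Ddx58 probes were −0.71, −0.41, −0.31 and 0.16, with SEs of 0.41 to 0.85. The last of these is the dimmest probe, which was not well above background on the array labelled EV-50 replicate 1.

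Dhx58, which encodes LGP2, was read by 1 kept probe (mm9 chr11:100556271-100556330, minus strand). The table gave 0.40 and 0.42 in EV-50 against −0.54 and −0.40 in shGR-19, a difference of −0.88 (SE 0.07, adjusted p = 0.00656, limma). In the scanner files it read −4.34 and −2.06 in EV-50 and −4.20 and −2.97 in shGR-19. There the arrays labelled replicate 2 were the higher in each line, the lines overlapped, and the first of the 4 was not well above background. The difference between lines was −0.39 (SE 0.90), while replicate 2 minus replicate 1 was 2.28 within EV-50 and 1.23 within shGR-19.

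Ifih1, which encodes MDA5 and was read at mm9 chr2:62435621-62435680 on the minus strand, did not pass the test. Its table values were 0.18 and 0.23 in EV-50 and −0.28 and −0.18 in shGR-19. These columns did not overlap, and the log2 difference was −0.44 (SE 0.06, adjusted p = 0.0163, limma). On the scanner arrays it read −3.21 and −1.55 in EV-50 and −3.57 and −2.08 in shGR-19, so that, as for Dhx58, the numbers separated the arrays more widely than the lines did. Replicate 2 exceeded replicate 1 by 1.66 in EV-50 and by 1.49 in shGR-19, against a scanner difference between lines of −0.45 (SE 0.78). Over all kept probes the median of replicate 2 minus replicate 1 was −0.03 for EV-50 and −0.06 for shGR-19.

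Among the Toll-like receptors, Tlr2 was lower in shGR-19 in the table while Tlr4 was higher and Tlr3 close to level, the last 2 without passing the test. Tlr2 had table values of 0.49 and 0.48 in EV-50 and −0.50 and −0.48 in shGR-19. The difference of −0.98 (SE 0.05, adjusted p = 0.00362, limma) had the smallest adjusted p of the 10 genes and was 1.97-fold, just short of the 2-fold limit. Its scanner values were 1.23 and 1.84 in EV-50 and 1.24 and 0.87 in shGR-19. The arrays labelled replicate 1 were level, at a difference of 0.00, and those labelled replicate 2 differed by −0.97, close to the table.

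Tlr4 had table values of −0.19 and −0.27 in EV-50 and 0.19 and 0.20 in shGR-19, with a difference of 0.42 (SE 0.05, adjusted p = 0.0141, limma). On the scanner arrays it read −2.82 and −3.15 in EV-50 and −2.72 and −2.84 in shGR-19. The shGR-19 array labelled replicate 2 lay just below the EV-50 array labelled replicate 1, so the lines overlapped, and the scanner difference was 0.21 (SE 0.24). Tlr3 was read by 2 probes. The brighter gave a table difference of −0.13 (SE 0.06, adjusted p = 0.195), with scanner values of −1.10 and −0.73 in EV-50 and −1.17 and −0.82 in shGR-19. The dimmer gave −0.31 (SE 0.53, adjusted p = 0.683, limma), with SDs of 0.71 and 0.70 between the table's duplicates, wider than the difference itself.

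The array carried 10 spots each for Tlr2, Tlr4 and Myd88, which gives the error within an array. For Tlr2 the SD over spots was 0.04 and 0.07 on the EV-50 arrays and 0.06 and 0.05 on the shGR-19 arrays. The spots of the 2 arrays labelled replicate 1 overlapped almost fully, from 1.18 to 1.31 in EV-50 and from 1.18 to 1.38 in shGR-19. Those labelled replicate 2 were far apart, from 1.76 to 1.97 in EV-50 and from 0.80 to 0.98 in shGR-19. Tlr4, the dimmest of the 3, had spot SDs of 0.09 to 0.10, with 8 of 10 spots used on the array labelled EV-50 replicate 1. Spot error was therefore smaller than the gap between the duplicates of EV-50 for each of the 3 genes.

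**Figure D2:**
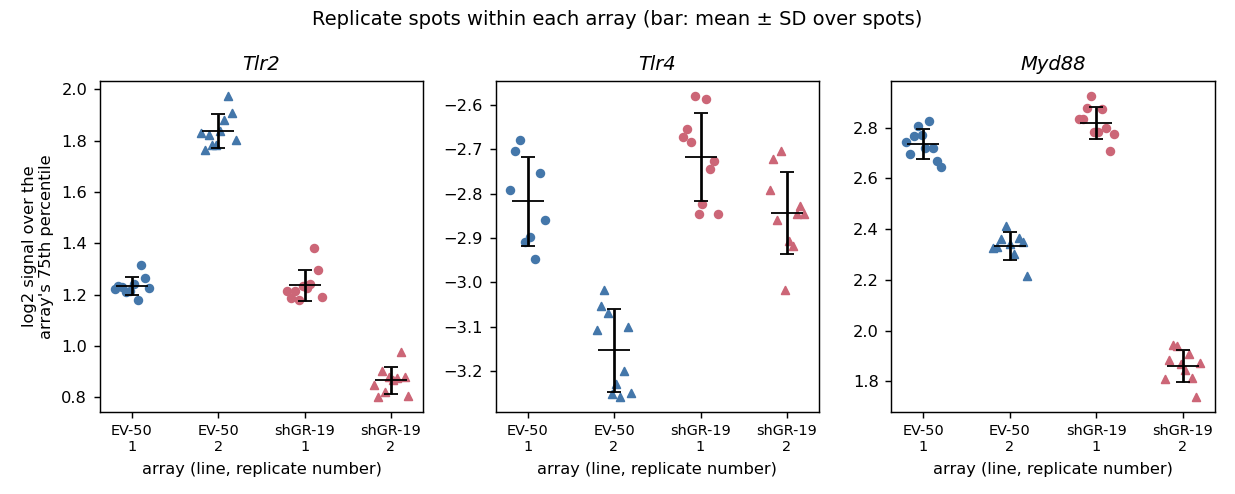
Log2 signal over the array's 75th percentile of each usable spot for Tlr2, Tlr4 and Myd88 on the 4 scanner arrays, with the mean and SD over spots as bars; each panel has its own axis. The Tlr2 spots of both arrays labelled replicate 1 share a range of about 1.18 to 1.31, while the replicate 2 arrays lie above and below it.

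Of the 2 adaptors, Myd88 was lower in shGR-19 in the table and Ticam1 was higher, the latter without passing the test. Myd88 (mm9 chr9:119245322-119245381, minus strand) had table values of 0.26 and 0.24 in EV-50 and −0.29 and −0.24 in shGR-19, a difference of −0.52 (SE 0.05, adjusted p = 0.00848, limma). In the scanner files it read 2.74 and 2.33 in EV-50 and 2.82 and 1.86 in shGR-19. Unlike Ifih1 and Dhx58 it was higher on the arrays labelled replicate 1 in both lines, and spot SDs were 0.05 to 0.06. The scanner difference was −0.19 (SE 0.41), made of 0.08 between the arrays labelled replicate 1 and −0.47 between those labelled replicate 2. Ticam1 was read by 2 probes that share 40 of their 60 bases and are not independent. They gave table differences of 0.36 (SE 0.07, adjusted p = 0.0329) and 0.40 (SE 0.06, adjusted p = 0.017), which did not pass. The brighter probe read −0.52 and −0.82 in EV-50 and −0.59 and −0.46 in shGR-19 on the scanner arrays, with the lines overlapping.

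Tbk1, the kinase downstream of both routes, was read by 2 probes that each span an exon junction (mm9 chr10:120988364-120988587 and chr10:120989556-120990810, minus strand). Their table differences were −0.46 (SE 0.07, adjusted p = 0.018) and −0.65 (SE 0.13, adjusted p = 0.0343), both short of the threshold. The brighter probe read 1.65 and 1.34 in EV-50 and 1.58 and 1.25 in shGR-19 in the scanner files. The arrays labelled replicate 1 were the higher in each line, and the scanner difference was −0.08 (SE 0.25).

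**Figure D3:**
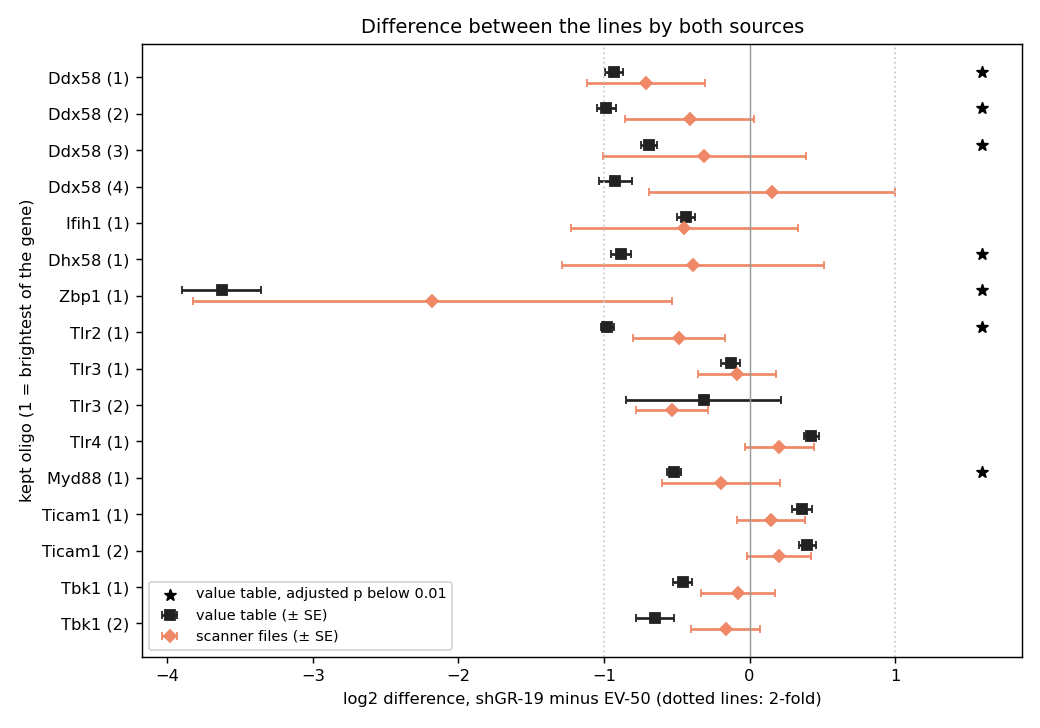
Log2 difference, shGR-19 minus EV-50, of the 16 kept member probes with its SE from limma, from the value table (squares) and the scanner files (diamonds); stars mark an adjusted p below 0.01 in the table, and dotted lines mark 2-fold. The squares of 7 probes carry a star, only Zbp1 lies beyond 2-fold, and the scanner error bars are wider than those of the table for every probe except the dimmer Tlr3 probe.

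The table calls rested on all 4 columns. Leaving out any 1 column took the adjusted p above 0.01 for each of the 5 genes, to between 0.0269 and 0.0627 (limma), with the same sign, and no probe of all those kept then passed this threshold together with the 2-fold limit. All 5 also missed it with arrays of the same number paired (0.0294 to 0.0328) and with dim probes kept in the fit (0.0162 to 0.0317). Zbp1 and Myd88 missed it after quantile normalisation (0.0109 and 0.0116, limma). The pairing and the dim probes changed the fit of all probes, not of these genes alone. Past the threshold and the 2-fold limit there were 0 probes with the pairing and 43 with dim probes kept, beside 1042 in the main fit. Some genes short of the threshold in the main fit passed it under other settings (limma). Among probes well above background on all 4 arrays these were Ifih1 (0.00787), Tbk1 (0.00865) and Tlr4 (0.00671). With a trended, robust variance prior they were Ifih1 (0.00995), Tbk1 (0.000507) and Ticam1 (0.00462). Tlr4 also passed after quantile normalisation (0.00965). Which genes passed thus depended on the settings.

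The genes around these sensors were described by 5 lists, in which 75 genes had a kept probe. By the value table, of these 75, 15 were lower in shGR-19 at an adjusted p below 0.01 and 1 was higher, by the brightest probe of each gene, against 6.04% and 5.53% of all kept probes. With the 2-fold limit these counts were 8 and 0, against 2.39% and 1.87%, and the scanner files gave 0. The median table difference of the 75 was −0.09, beside 0.01 for all kept probes. The values for all kept probes count every probe of a gene, while the lists count only its brightest. The comparison is therefore not like for like, here and for each list below.

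Among other Toll-like receptors and their accessory proteins, 3 of 10 genes were lower and 1 was higher. Of all kept probes, 6.04% were lower and 5.53% higher by the same rule. Lbp, a lipopolysaccharide carrier, had a table difference of −3.02 (SE 0.05, adjusted p = 0.00131, limma), with scanner values of −0.40 and −0.30 in EV-50 and −0.54 and −3.28 in shGR-19. Unc93b1, which escorts nucleic acid-sensing Toll-like receptors to endosomes, had −1.11, and Cd14, the lipopolysaccharide co-receptor, −0.81. Cnpy3, a chaperone of Toll-like receptors, was the gene that was higher, at 0.63. The median of this list was 0.09, opposite in sign to the members, and Tlr1 (1.095, adjusted p = 0.0117) and Tlr6 (0.37, adjusted p = 0.0136, limma), the partners of TLR2, were not past the threshold.

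None of 14 Toll-like receptor adaptors, kinases and brakes passed, a count near the 6.04% lower and 5.53% higher of all kept probes, with 7 lower and 7 higher and a median of 0.03. In RIG-I-like receptor signalling the median was −0.03. There 3 of 18 genes were lower and none higher, beside 6.04% and 5.53% of all kept probes. Those 3 were Zc3hav1, an antiviral zinc finger protein (−1.39), Rnf125, a ubiquitin ligase that marks RIG-I for degradation (−1.08), and Trim25, the ligase that activates RIG-I (−0.53). Mavs itself had 0.21 (adjusted p = 0.0473, limma).

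Of 10 TBK1 partners and factors it activates, 3 were lower and none higher, beside 6.04% and 5.53% of all kept probes. The median of the list was −0.14. Irf7, the interferon regulatory factor that amplifies interferon production, had −3.80 (SE 0.06, adjusted p = 0.0013, limma). Its scanner values were −2.91 and 0.58 in EV-50 and −3.18 and −3.19 in shGR-19, so that, as for Zbp1, 1 array of 4 was high. Optn, an adaptor of TBK1 in autophagy, had −0.79 and Traip, a ubiquitin ligase named for its binding to TRAF proteins, −0.70. Irf3, the first target of TBK1, had −0.02 (adjusted p = 0.743, limma).

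Of 23 other sensors and nucleotide enzymes, 6 were lower and none higher, beside 6.04% and 5.53% of all kept probes. The median of the list was −0.20. Oas1a, which makes the second messenger of RNase L, had −5.78 (SE 0.17, adjusted p = 0.00242, limma), with scanner values of −3.63 and 0.79 in EV-50 and −3.88 and −5.05 in shGR-19. The RNA-editing enzyme Adar had −1.18, Mnda and Ifi204, of the interferon-inducible PYHIN family, −1.13 and −0.47, the peptidoglycan sensor Nod1 −0.91 and the necroptosis effector Mlkl −0.54. Oas1a, too, was high on the array labelled EV-50 replicate 2 alone.

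**Figure D4:**
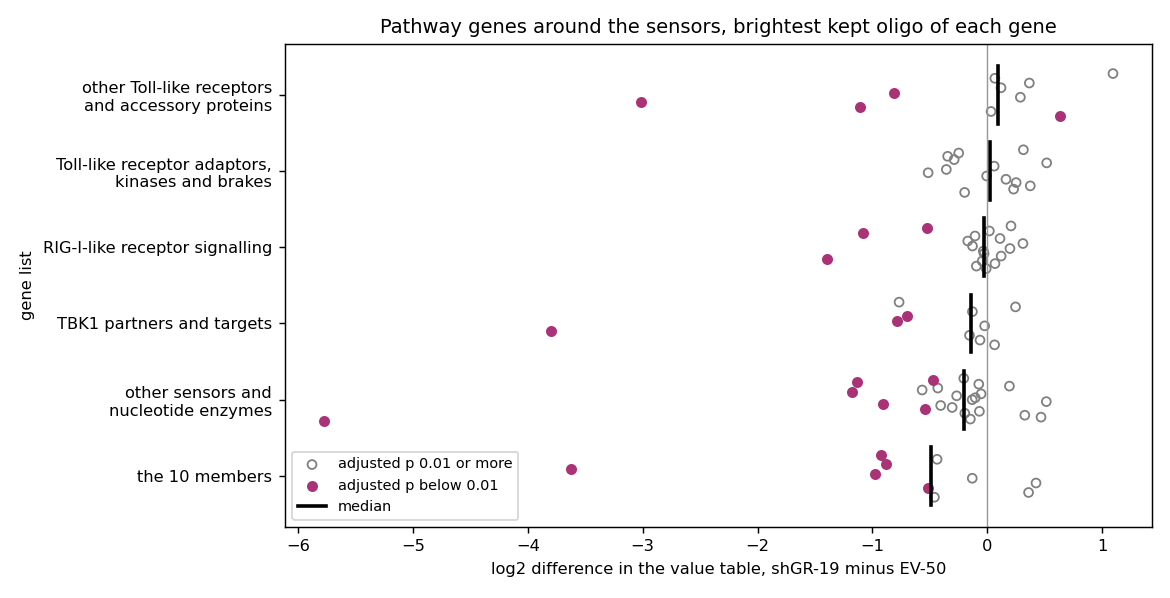
Log2 difference in the value table, shGR-19 minus EV-50, for the brightest kept probe of each gene in 5 pathway lists and for the 10 members; filled points have an adjusted p below 0.01 (limma) and black bars are medians. Filled points lie left of 0 except Cnpy3, at 0.63, and the list of adaptors, kinases and brakes has none.

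The genes most like the mean scanner profile of the 3 helicases were sought among 14535 other genes well above background on all 4 arrays. All 3 were highest on the array labelled EV-50 replicate 2, but they differed in shGR-19, where replicate 2 minus replicate 1 was −0.13 for Ddx58, 1.49 for Ifih1 and 1.23 for Dhx58. The mean profile of Ddx58, Ifih1 and Dhx58, centred on each probe's mean, was −0.57 and 1.09 in EV-50 and −0.69 and 0.17 in shGR-19. The nearest genes by root-mean-square distance over the 4 arrays were Cnih2 (0.05), the death receptor gene Fas (0.05), Chst2 (0.06), Rdh10 (0.07) and Bhlhe40 (0.07). Their table differences were −0.95, −0.96, −1.18, −0.995 and −0.78, all lower in shGR-19. This direction came largely with the choice, as the profile fell from 1.09 to 0.17 between the arrays labelled replicate 2. Over 21179 probes the scanner difference between those arrays correlated at 0.911 with the table's difference between lines. With 4 arrays, likeness of this kind describes the arrays and says nothing on shared control.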

How the data were processed

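RNA (300 ng) from 2 samples of each line was labelled with Cy3 and hybridised to Agilent Whole Mouse Genome arrays on 1 slide. Agilent Feature Extraction 10.5.1.1, per the submitters' processing notes, read each array, and the authors deposited its processed intensity values, background-subtracted and detrended, with probes annotated on mm9. The deposited table holds log2 values that the authors normalised in GeneSpring and centred on each probe's median (0 in every row), so it gives no absolute level. Its scaling before centring is not given in the sources used here.

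For this report, processed signals were put on log2, averaged over a probe's usable spots and reduced by the array's 75th percentile over probes. Outlier-flagged spots, 74 to 139 of 43379 per array, and control spots were left out. The 75th percentile was 516 to 584 signal units, and 23290 to 27358 spots per array were well above background; the number of arrays limits the precision. Kept probes were those detected well above background throughout at least 1 of the lines. Both sources were fitted with limma 3.58.1 in R 4.3.3 (lmFit and eBayes) on the 4 arrays, with Benjamini-Hochberg adjustment over all kept probes and a threshold of 0.01, with and without a 2-fold limit. The scripts were tested on simulated data. A gene is represented by its brightest kept probe. All members were named; from the pathway lists, genes past the threshold, with up to 8 of each list; and the 5 genes nearest in profile. Tlr1, Tlr6, Mavs and Irf3 were added after their values were seen. Members, lists and motifs were chosen with earlier results of these data known. Slide and scan were the same for all arrays, so no batch could be fitted.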

Additional observations from a re-analysis of the deposited data

How the results depend on the processing

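No probe passed in the scanner files with any normalisation, background correction, filter or prior tried, with the replicate block, or with any array left out (0 to 0 for all probes, members and pathway genes). An unadjusted p below 0.01 with the 2-fold limit gave 35 probes there, and the value table in their place gave 1042 probes, 1 member probe and 8 pathway genes. In the value table, dropping the fold limit gave 2827 probes, 7 member probes and 16 pathway genes. Keeping dim probes gave 43, 0 and 2, quantile normalisation left 0 member probes, and leaving out any 1 column gave 0 to 0 for each count. With the replicate block, a fit in which arrays of the same number are paired, the counts were 0, 0 and 0 in the table. With the block Tlr2, Ddx58, Dhx58, Zbp1 and Myd88 had adjusted p-values of 0.0294 to 0.0328 (limma). With dim probes kept these were 0.0162 to 0.0317, so all 5 missed the threshold under each. Ifih1, Tlr4, Ticam1 and Tbk1, which missed it in the main fit, each passed under at least 1 other setting. The labels do not say that a number marks a shared culture or day; deviations of same-numbered arrays correlated at 0.652 in the scanner files and 0.108 in the table. In the table every member kept its sign under every alternative run.

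In the scanner files the sign of several members turned with 1 array left out. The lowest and highest log2 differences were −1.28 and 0.38 for Ifih1, −1.53 and 0.75 for Dhx58, −4.58 and 0.22 for Zbp1, −0.27 and 0.10 for Tlr3, −0.67 and 0.28 for Myd88, −0.0061 and 0.30 for Ticam1, and −0.24 and 0.08 for Tbk1. The arrays labelled replicate 1 alone, a comparison added after seeing the data, gave 0.13 for Dhx58, 0.0025 for Tlr2, 0.083 for Myd88 and −0.0706 for Ticam1, opposite to the difference over all 4 arrays. The cause was not tested. Signal near background on 1 array limits Dhx58 and the dimmest Ddx58 probe.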
